A study of Mus musculus with 10 samples.

Results

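The Wnt genes followed here are the 47 genes on the array whose symbols name a Wnt ligand, a Frizzled receptor, a secreted Frizzled-related or Dickkopf protein, or are Frzb, Wif1, Lrp5, Lrp6, Axin2, Rspo1, Rspo2 or Rspo3. They were picked by symbol alone from 19752 measured genes, and all 47 symbols of this kind in a RefSeq gene table of the mouse were present. They comprise 19 Wnt ligands, 10 Frizzled receptors, 2 Lrp co-receptors, 5 Frizzled-related proteins with Frzb counted among them, 5 Dickkopf genes, 3 R-spondins, Wif1, Axin2 and the non-coding transcript Fzd10os. The samples were whole dentate gyri of untreated C56BL/6J mice (the spelling of the labels), aged 4, 6, 8, 10 or 12 weeks, with 2 Affymetrix arrays of total RNA per age and 10 in all. The gyri had been freed from the rest of the hippocampus with a needle tip, dissociated and given DNase, per the protocols in the labels. In such whole tissue, fewer cells of a type and less RNA per cell cannot be told apart.

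Wnt proteins are secreted lipid-modified ligands that bridge a Frizzled receptor and Lrp5 or Lrp6 at the cell surface. This stops the destruction of beta-catenin, which then enters the nucleus and switches on targets with TCF and LEF factors. Secreted Frizzled-related proteins and Wif1 bind Wnts outside the cell, Dickkopf proteins block Lrp5 and Lrp6, and R-spondins keep Frizzled receptors at the surface. In the dentate gyrus, Wnt signals from astrocytes are known to favour the birth of neurons from adult stem cells, and Frzb, also called Sfrp3, is known as a granule cell product that restrains it.

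Array medians lay between 8.27 and 8.31 log2 units, and Pearson correlations between arrays across probe sets ranged from 0.994 to 0.998. The labels gave the sex as female, whereas Xist lay between 5.41 and 6.02 on the 10 arrays, and mean levels of the Y-linked Uty, Kdm5d and Eif2s3y were 9.23, 9.06 and 8.97. These levels conflict with the label. The granule cell genes Prox1 and Calb1 averaged 12.29 and 12.63, and all 10 granule cell markers listed stood over the dim level, which is the 95th percentile of 1204 odorant, vomeronasal and trace amine receptor genes and averaged 7.01. Xist lay under the dim level on all 10 arrays, where that level was 6.88 or higher. Of the 47 Wnt genes, 41 had a mean over that level and 37 stood over it on every array; the 6 dim genes were Dkk1, Fzd10os, Sfrp2, Wnt1, Wnt2b and Wnt8b. Because probes differ in brightness, the levels of single genes are not compared with each other. The array of 6 weeks replicate 1 had a Ttr level of 13.77, against 8.87 to 10.15 on the other arrays, and a mean of 8.44 over 12 choroid plexus markers. The array of 8 weeks replicate 1 had the narrowest distribution (SD 2.12) and the lowest mean correlation with the others, 0.9949.

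Sfrp1, which encodes a secreted protein with a Frizzled-like domain that binds Wnts, fell with age. Its level was 8.88 and 8.87 log2 units on the 4-week arrays, 8.56 and 8.34 at 6 weeks, 8.15 and 8.20 at 8 weeks, 7.77 and 8.00 at 10 weeks, and 7.85 and 7.94 at 12 weeks. Every array of 8 weeks or later lay under every array of 4 or 6 weeks, and the arrays of 10 and 12 weeks overlapped. The straight line over age fell by 1.01 ± 0.12 log2 units across the 8 weeks (SE; 95% interval −1.26 to −0.75), or 2.01-fold, with an adjusted p of 0.0017 in limma. A larger fall was fitted for 8 of the other genes. In mm10 the gene lies on chromosome 8, at 23411383 to 23449632.

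The age means of Sfrp1 were 8.88 ± 0.0056, 8.45 ± 0.15, 8.17 ± 0.03, 7.89 ± 0.16 and 7.90 ± 0.06 at 4, 6, 8, 10 and 12 weeks (log2, SD, n = 2 each). The means fell at each of the first steps up to 10 weeks, and those of 10 and 12 weeks differed by less than the spread between arrays. At the ends of the series the mean was 7.90 ± 0.06 at 12 weeks and 8.88 ± 0.0056 at 4 weeks (SD, n = 2 each). That difference was −0.98 ± 0.10 (SE), or 1.97-fold lower at 12 weeks, with an adjusted p of 0.0039 in limma. The moderated F-test over the 5 ages, again in limma, gave an adjusted p of 0.016. These 3 tests use the same arrays and are not independent.

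The trend of Sfrp1 passed in 21 of 22 alternative fits and was lost without both 4-week arrays (change −0.78, adjusted p = 0.23 in limma). The comparison of 12 with 4 weeks was lost without 4 weeks replicate 1, 4 weeks replicate 2 or 12 weeks replicate 1, at adjusted p of 0.064, 0.073 and 0.067 in limma. The F-test was lost without either 4-week array (0.24 and 0.21), 10 weeks replicate 1 (0.061) or either 12-week array (0.12 and 0.094), and with the replicate number as a block (0.082).

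Sfrp1 was the one member called in any of the 3 tests. With an adjusted p under 0.05, 1 of the 47 Wnt genes had a trend, against 0.82% of all 19752 genes tested (0.673% lower and 0.147% higher). The same gene was the 1 member called in the F-test, where 0.167% of all genes were called, and the 1 called between 12 and 4 weeks, where 0.516% were (0.39% lower). At an unadjusted p under 0.05, 5 members had a trend, 2 higher and 3 lower, in a table where 11.7% of genes did, and 5 differed between 12 and 4 weeks, where 9.57% of genes did. The median change over the 8 weeks was 0.02 log2 units for the 47 Wnt genes and 0.00340 for all genes, and the median absolute change was 0.0751 and 0.0733. The 2 medians of absolute change were thus close to each other.

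**Figure D1:**
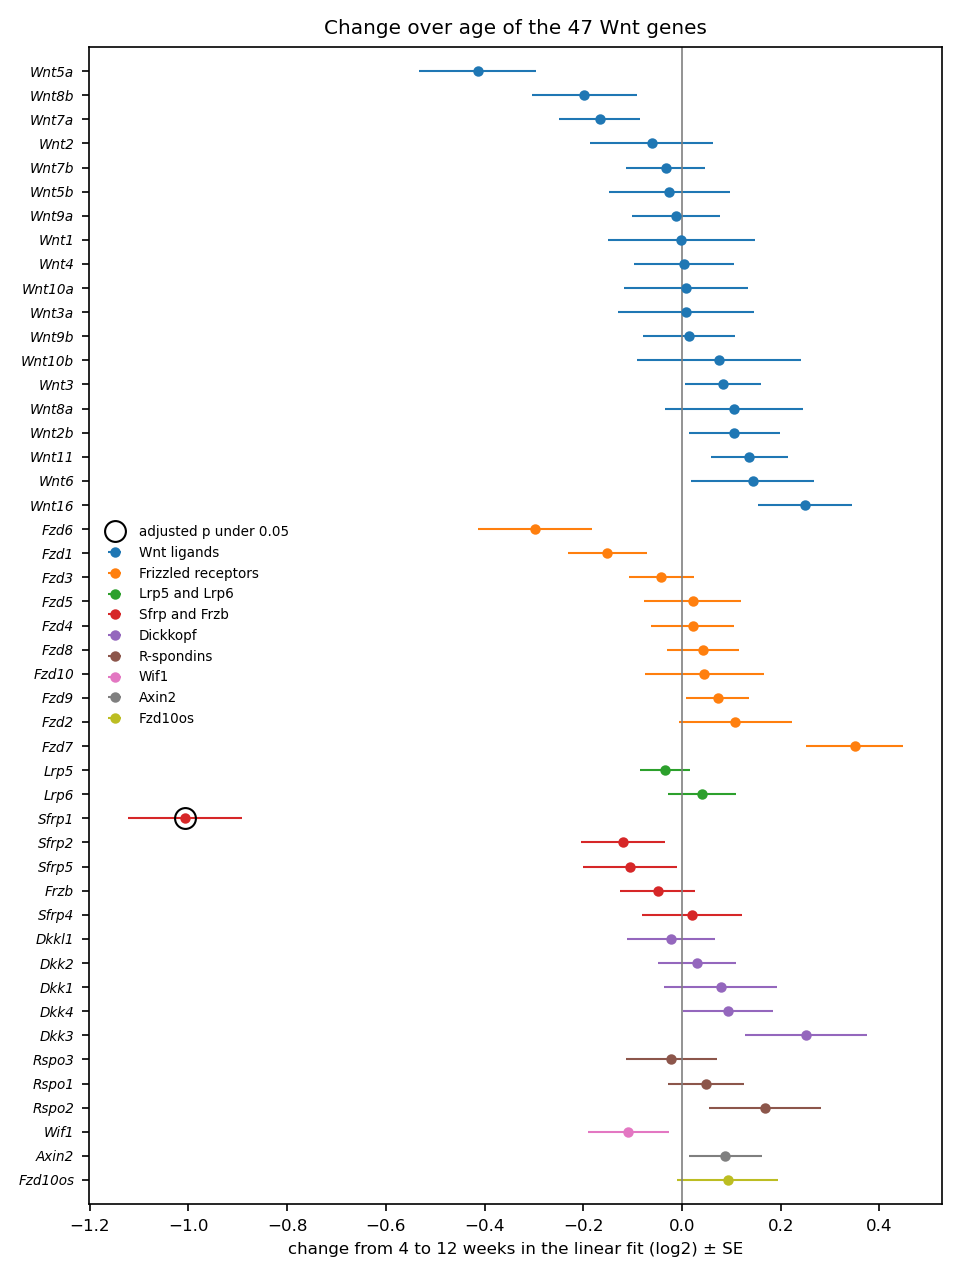
Change of each of the 47 Wnt genes from 4 to 12 weeks in the linear fit (log2, horizontal axis) with its standard error, grouped by protein class and coloured by class. Sfrp1, at −1.01, is the circled gene with an adjusted p under 0.05, and the other points lie between −0.41 (Wnt5a) and 0.35 (Fzd7).

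The arrays put bounds on the straight-line change of the other members, not on courses of another shape. Of the 46 Wnt genes without a call in the trend, 45 had a 95% interval (not adjusted for the number of genes) that stayed within a 1.5-fold change either way, 0.58 log2 units. The exception was Wnt5a. The 45 include the 6 dim genes. For genes at or near the dim level the interval bounds the signal of the probe set, and a change of the transcript may not show. Of the same 46 genes, 4 had an interval that left out 0. The median standard error of the change was 0.10 for the Wnt genes and 0.08 for all genes.

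Among the ligands the largest fall was that of Wnt5a, best known for signals that do not use beta-catenin. It had levels of 8.57 and 8.44 at 4 weeks, 8.54 and 8.34 at 6 weeks, 8.27 and 8.45 at 8 weeks, 7.95 and 8.13 at 10 weeks and 8.05 and 8.33 at 12 weeks. Of the 4 arrays of 10 and 12 weeks 3 were the lowest of the series, and 12 weeks replicate 2 lay over 8 weeks replicate 1. The change was −0.41 ± 0.12 (SE, 95% interval −0.67 to −0.16), and the gene was not called (adjusted p = 0.16 in limma, and 0.066 to 0.64 over 22 alternative fits).

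Wnt16 had the largest positive change of the ligands. Its levels were 7.16 and 7.20 at 4 weeks, 7.17 and 7.20 at 6 weeks, 7.61 and 7.39 at 8 weeks, 7.35 and 7.32 at 10 weeks and 7.44 and 7.40 at 12 weeks. All arrays from 8 weeks on lay over all arrays of 4 and 6 weeks. The values lay near the dim level, which was 7.18 on 8 weeks replicate 1, the array where Wnt16 was highest. With a change of 0.25 ± 0.10 (SE), Wnt16 was not called (adjusted p = 0.31 in limma, and 0.055 to 0.83 over the alternatives).

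Wnt7b, a ligand that promotes dendrite growth and the formation of brain vessels, had a change of −0.03 ± 0.08 (SE). It had levels of 9.54 and 9.50 at 4 weeks, 9.68 and 9.54 at 6 weeks, 9.53 and 9.67 at 8 weeks, 9.46 and 9.44 at 10 weeks and 9.48 and 9.63 at 12 weeks, with the lowest values at 10 weeks. The related Wnt7a, a ligand of neural stem cells and synapses, had a change of −0.17 ± 0.08 (adjusted p = 0.47 in limma). Wnt3 and Wnt3a, which act through beta-catenin and of which Wnt3 is known as an astrocyte signal to dentate stem cells, had changes of 0.08 ± 0.08 and 0.01 ± 0.14. The remaining ligands had changes between −0.20 (Wnt8b, dim) and 0.14 (Wnt6). In all, 8 of the 19 ligands had negative changes and 11 positive ones, with a median of 0.01, and 0 were called in any of the 3 tests in limma; at an unadjusted p under 0.05, 2 ligands had a trend (11.7% of all genes), 3 passed the F-test (8.46%) and 2 differed between 12 and 4 weeks (9.57%).

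Wnt4 was the only member with a second single-gene probe set. The probe set used had a mean of 8.77 and the other a mean of 8.29, and over the 10 arrays they ranged from 8.60 to 9.04 and from 8.15 to 8.47. The highest value of the first was on 8 weeks replicate 1 and that of the second on 6 weeks replicate 2.

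Of the 10 Frizzled receptors, Fzd7, expressed on many stem cells, had the largest positive change of all members. It had levels of 8.36 and 8.10 at 4 weeks, 8.37 and 8.42 at 6 weeks, 8.36 and 8.49 at 8 weeks, 8.42 and 8.62 at 10 weeks and 8.46 and 8.76 at 12 weeks. The age means rose at each of the 4 steps, with SDs of up to 0.21 between the 2 arrays of an age, and both 12-week arrays stood over both 4-week arrays. Its change of 0.35 ± 0.10 (SE), 1.27-fold, missed the threshold (adjusted p = 0.16 in limma, and 0.081 to 0.67 over the alternatives).

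Fzd6, known from hair and tissue polarity, had the largest negative change of the receptors. Its levels were 8.33 and 8.43 at 4 weeks, 8.35 and 8.57 at 6 weeks, 8.46 and 8.45 at 8 weeks, 8.05 and 8.14 at 10 weeks and 8.08 and 8.30 at 12 weeks. The 10- and 12-week arrays lay under all the earlier ones. The change of −0.30 ± 0.12 (SE) did not pass (adjusted p = 0.32 in limma).

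Fzd3, a receptor of axon guidance and planar polarity, had levels of 10.67 and 10.74 at 4 weeks, 10.69 and 10.71 at 6 weeks, 10.56 and 10.73 at 8 weeks, 10.60 and 10.61 at 10 weeks and 10.65 and 10.75 at 12 weeks. Its change was −0.04 ± 0.07 (SE), with a 95% interval of −0.19 to 0.10. Fzd1 had a change of −0.15 ± 0.08 and Fzd4, the receptor of norrin in brain vessels, of 0.02 ± 0.08. The remaining receptors, Fzd2, Fzd5, Fzd8, Fzd9 and Fzd10, had changes between 0.02 and 0.11. Fzd10os, a non-coding transcript beside Fzd10, had a change of 0.09 ± 0.10 and was dim.

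The co-receptor Lrp6 had levels of 10.23 and 10.17 at 4 weeks, 10.17 and 10.17 at 6 weeks, 10.04 and 10.21 at 8 weeks, 10.11 and 10.19 at 10 weeks and 10.25 and 10.27 at 12 weeks. Its change was 0.04 ± 0.07 (SE, 95% interval −0.11 to 0.19), and that of Lrp5 was −0.03 ± 0.05 (95% interval −0.14 to 0.08). Neither passed, and both intervals lay well within a 1.5-fold change.

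**Figure D2:**
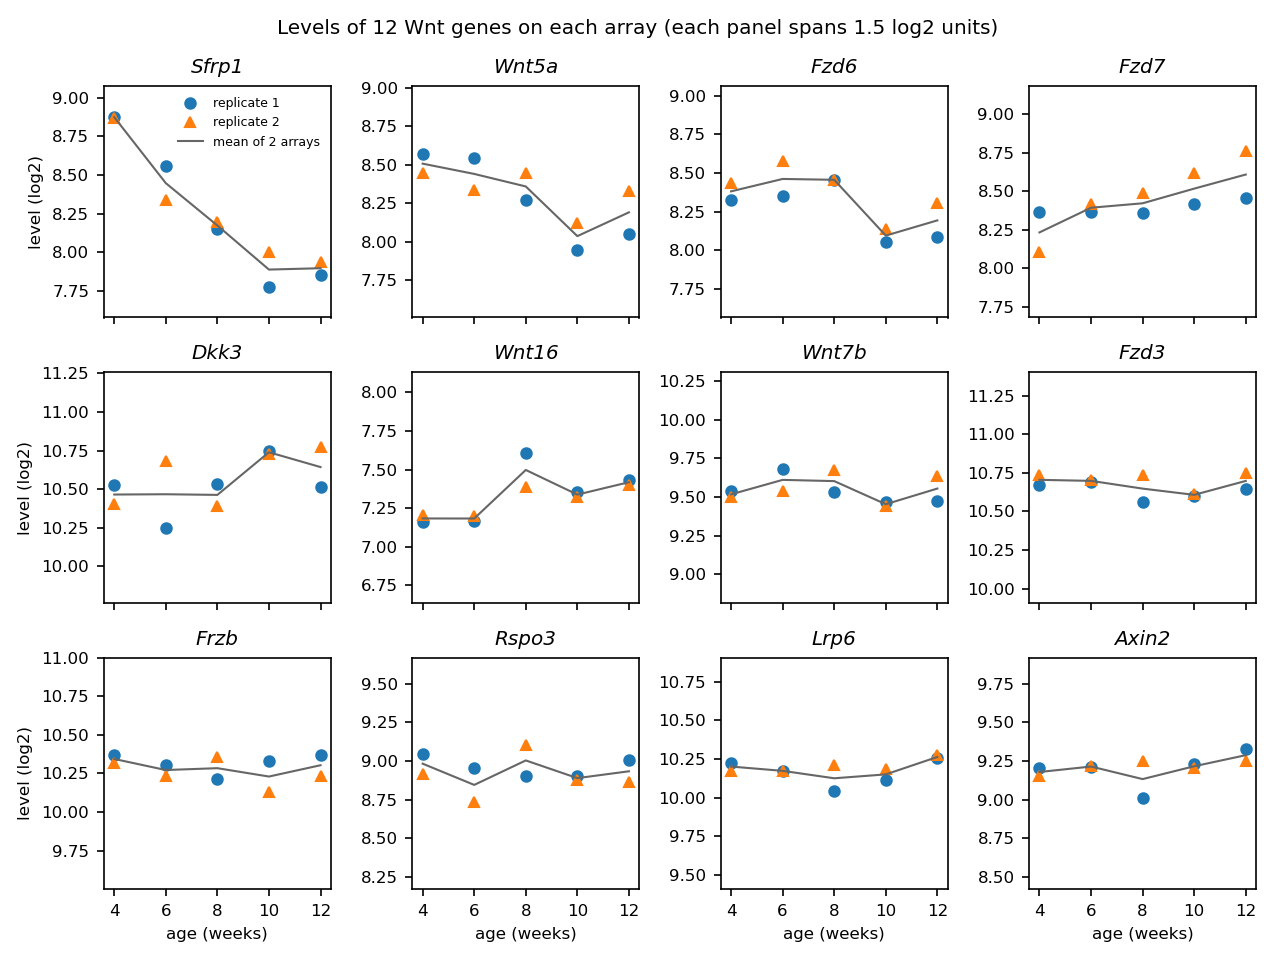
Level (log2) of 12 Wnt genes on each array against age in weeks, with circles for replicate 1, triangles for replicate 2 and a line through the mean of the 2 arrays; every panel spans 1.5 log2 units. Sfrp1 has a mean of 7.89 at 10 weeks, against 8.88 at 4 weeks, and the points of the other genes span less of their panels.

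The other Frizzled-related proteins had smaller changes than Sfrp1, which was 1 of 5 in the class. Frzb had levels of 10.37 and 10.32 at 4 weeks, 10.31 and 10.24 at 6 weeks, 10.21 and 10.36 at 8 weeks, 10.33 and 10.13 at 10 weeks and 10.37 and 10.24 at 12 weeks. Every age overlapped with others. Frzb averaged 10.30 ± 0.09 at 12 weeks and 10.34 ± 0.04 at 4 weeks (SD, n = 2 each), and its change over the series was −0.05 ± 0.08 (SE, 95% interval −0.21 to 0.12). Sfrp2 and Sfrp5 had changes of −0.12 ± 0.09 and −0.11 ± 0.10, and Sfrp4 of 0.02 ± 0.10; the means of these 3 genes lay between 6.99 and 7.26, near the dim level. Wif1, with a mean of 7.18, had a change of −0.11 ± 0.08. Whether Sfrp1 and these genes differed in their changes was not tested.

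Dkk3, a divergent Dickkopf that is expressed in hippocampal neurons, had levels of 10.52 and 10.41 at 4 weeks, 10.25 and 10.68 at 6 weeks, 10.53 and 10.39 at 8 weeks, 10.75 and 10.73 at 10 weeks and 10.52 and 10.77 at 12 weeks. Of the 4 arrays of 10 and 12 weeks, 3 stood over all earlier ones. The change was 0.25 ± 0.12 (SE), and it did not pass (adjusted p = 0.47 in limma). Dkk1, a strong inhibitor at Lrp6 that was dim here, had a change of 0.08 ± 0.11, and Dkk2, Dkk4 and Dkkl1, with means between 7.07 and 7.18, had changes of 0.03 ± 0.08, 0.09 ± 0.09 and −0.02 ± 0.09. Among the R-spondins, Rspo3 had levels of 9.05 and 8.92 at 4 weeks, 8.95 and 8.74 at 6 weeks, 8.90 and 9.10 at 8 weeks, 8.90 and 8.88 at 10 weeks and 9.01 and 8.86 at 12 weeks. No age stood apart from all others, and its change was −0.02 ± 0.09; Rspo1 and Rspo2 had 0.05 ± 0.08 and 0.17 ± 0.11.

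Axin2, the scaffold protein of the beta-catenin destruction complex, is itself switched on by beta-catenin and is widely read as a gauge of that branch. Its levels were 9.20 and 9.15 at 4 weeks, 9.21 and 9.22 at 6 weeks, 9.01 and 9.25 at 8 weeks, 9.23 and 9.20 at 10 weeks and 9.33 and 9.25 at 12 weeks. The lowest value was that of 8 weeks replicate 1. The change was 0.09 ± 0.07 (SE, 95% interval −0.07 to 0.25) and did not pass (adjusted p = 0.72 in limma).

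Single arrays stood out within the members. On 8 weeks replicate 1, 20 of the 47 Wnt genes had their highest level, 42.6%, against 29.6% of all genes, and 12 of the 19 ligands did. The Wnt genes and all genes differed in signal, with medians of 7.87 and 8.38, and with 87.2% and 72.8% over the dim level. The array of 8 weeks replicate 1 had the narrow distribution given above and the highest dim level, 7.18. The part of either in these maxima was not tested. Since 8 weeks is the middle of the series, leaving this array out could not move the change of Sfrp1 from −1.01.

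**Figure D3:**
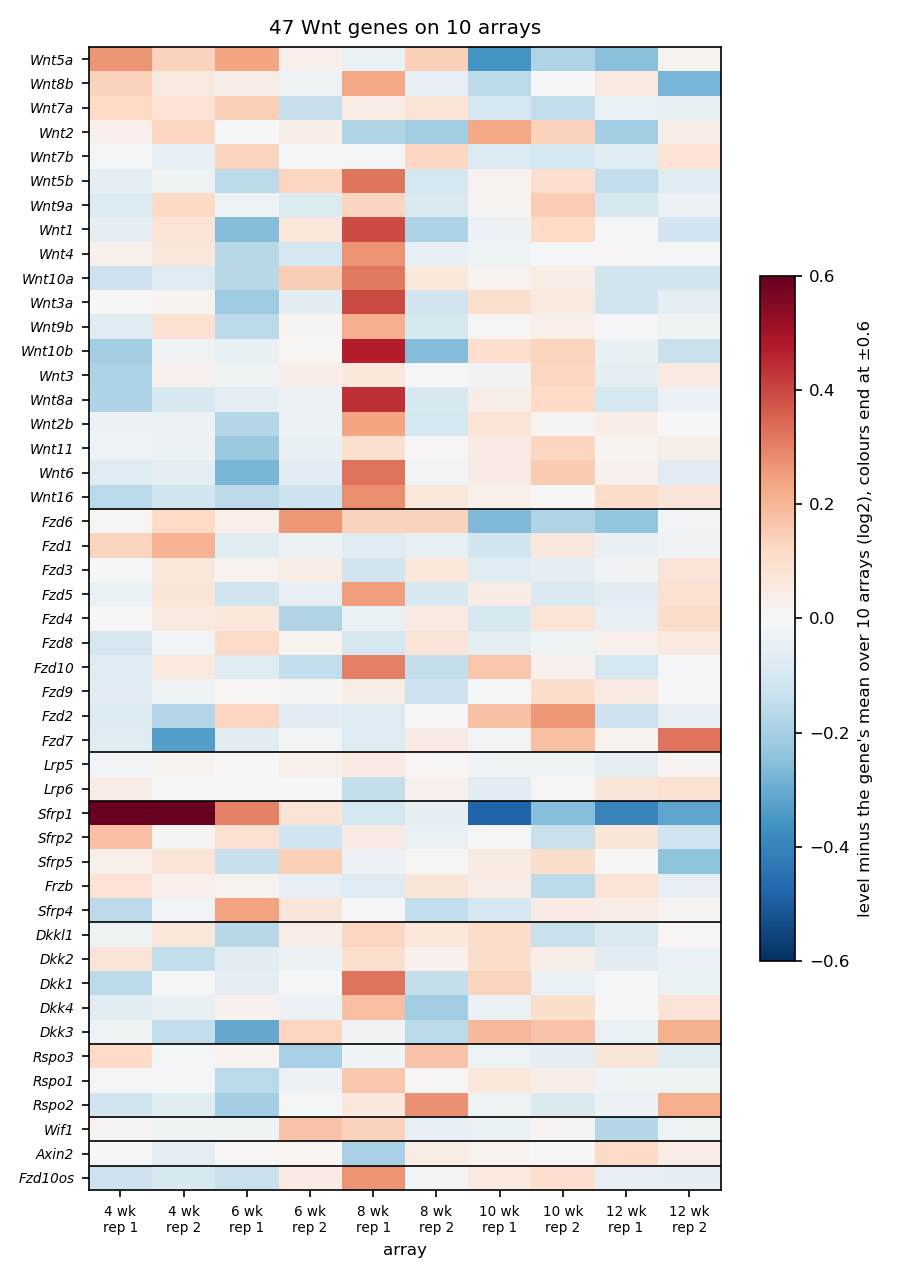
Level of each of the 47 Wnt genes (rows, grouped by class) on the 10 arrays (columns, by age), as the difference from the gene's own mean (log2; colours end at ±0.6). Sfrp1 runs from high at 4 weeks to low at 10 and 12 weeks, and 8 weeks replicate 1 holds the highest level of 20 of the 47 genes.

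Some ligand genes lie side by side in the genome, in mm10 coordinates. Wnt6 (chromosome 1, 74754342 to 74785322) and Wnt10a (74792019 to 74804176) lie 6696 bases apart, and had changes of 0.14 ± 0.12 and 0.01 ± 0.12. Wnt3a (chromosome 11, 59248036 to 59290751) and Wnt9a (59306849 to 59333552) had changes of 0.01 ± 0.14 and −0.01 ± 0.09. Wnt10b and Wnt1 lie 11650 bases apart on chromosome 15, with changes of 0.08 ± 0.17 and −0.00187 ± 0.15. On chromosome 11, Wnt9b (103727362 to 103775272) and Wnt3 (103774175 to 103818021) overlap in the annotation, and had changes of 0.01 ± 0.09 and 0.08 ± 0.08. The nearest member to Sfrp1 was Dkk4, 783364 bases away on chromosome 8, with a change of 0.09 ± 0.09.

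Other genes of the pathway were followed in 6 groups, namely secretion and further modulators, receptor complex, planar polarity, cytoplasm, nucleus and known targets. Of 107 such genes that are not among the 47, 4 fell and 0 rose at an adjusted p under 0.05 in limma, or 3.74%, against 0.82% of all genes (0.673% lower). At an unadjusted p under 0.05 there were 19, against 11.7% of all genes. The F-test called 0 of the 107 in limma, against 0.167% of all genes, with 17 at an unadjusted p under 0.05 (8.46% of all genes). Between 12 and 4 weeks 2 were called in limma, Tle3 and Draxin (adjusted p = 0.016 and 0.036), against 0.516% of all genes (0.39% lower). The median change of the 107 genes over the series was −0.03, with 64 negative and 43 positive changes. The 4 that fell were Draxin, a secreted guidance protein that can block Wnt signals at Lrp6, Tle3, a co-repressor of TCF factors, Apcdd1, a membrane-bound Wnt inhibitor that is also a Wnt target, and Csnk1e, a kinase that phosphorylates Dishevelled.

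Draxin averaged 8.08 ± 0.16 at 12 weeks and 8.76 ± 0.06 at 4 weeks (SD, n = 2 each). Its trend was −0.63 ± 0.10 (SE, adjusted p = 0.012 in limma), 1.55-fold lower, and the 12-week arrays, at 7.97 and 8.19, were the lowest of the series. Draxin also stands in the list of newborn neuron markers used below. Tle3 averaged 9.16 ± 0.05 at 12 weeks and 9.67 ± 0.05 at 4 weeks (SD, n = 2 each), with 9.70 and 9.64 on the 4-week arrays and 9.12 to 9.43 on all later ones, and fell by 0.47 ± 0.07 (SE, adjusted p = 0.011 in limma).

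Apcdd1 averaged 10.27 ± 0.08 at 12 weeks and 10.67 ± 0.03 at 4 weeks (SD, n = 2 each), with a trend of −0.45 ± 0.07 (SE, adjusted p = 0.017 in limma), while the difference between those 2 ages was not called (adjusted p = 0.070). Its arrays of 10 and 12 weeks, between 10.21 and 10.32, lay under all earlier ones, between 10.48 and 10.69. Csnk1e averaged 11.52 ± 0.03 at 12 weeks and 11.83 ± 0.05 at 4 weeks (SD, n = 2 each) and fell by 0.31 ± 0.05 (SE, adjusted p = 0.018 in limma), with its age mean lower at every step, while between 12 and 4 weeks it was not called (adjusted p = 0.11). Without either 4-week array the count of these genes was 0, with adjusted p from 0.057 to 0.13 for the 4 genes in limma, it was 2, Draxin and Tle3, without 12 weeks replicate 1, and 3 without 12 weeks replicate 2, where Csnk1e was lost (adjusted p = 0.075).

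By group, secretion and further modulators had 1 of 13 genes called, the receptor complex 0 of 18, planar polarity 0 of 14, the cytoplasm 1 of 33, the nucleus 1 of 19 and the known targets 1 of 17 genes; some targets stand in 2 groups. Porcn, the enzyme that adds the lipid to Wnts, had a change of −0.05 ± 0.06. Lgr4, an R-spondin receptor, had −0.03 ± 0.11, Vangl1, a planar polarity protein, −0.08 ± 0.07, Dvl1, a Dishevelled protein, −0.12 ± 0.08, Tcf7l1, a TCF factor, −0.12 ± 0.06, and Sp5, a beta-catenin target, −0.04 ± 0.11 (SE). None of these 6 passed. Sostdc1, a secreted antagonist of BMP and Wnt signals that was chosen after its values were seen, had the largest negative change of the 107 genes (−0.67 ± 0.25, adjusted p = 0.29 in limma). It stood at 9.15 on 6 weeks replicate 1, the array with the high Ttr level, and at 7.78 to 8.36 on the others, and without that array its change was −0.47 (adjusted p = 0.027 in limma).

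**Figure D4:**
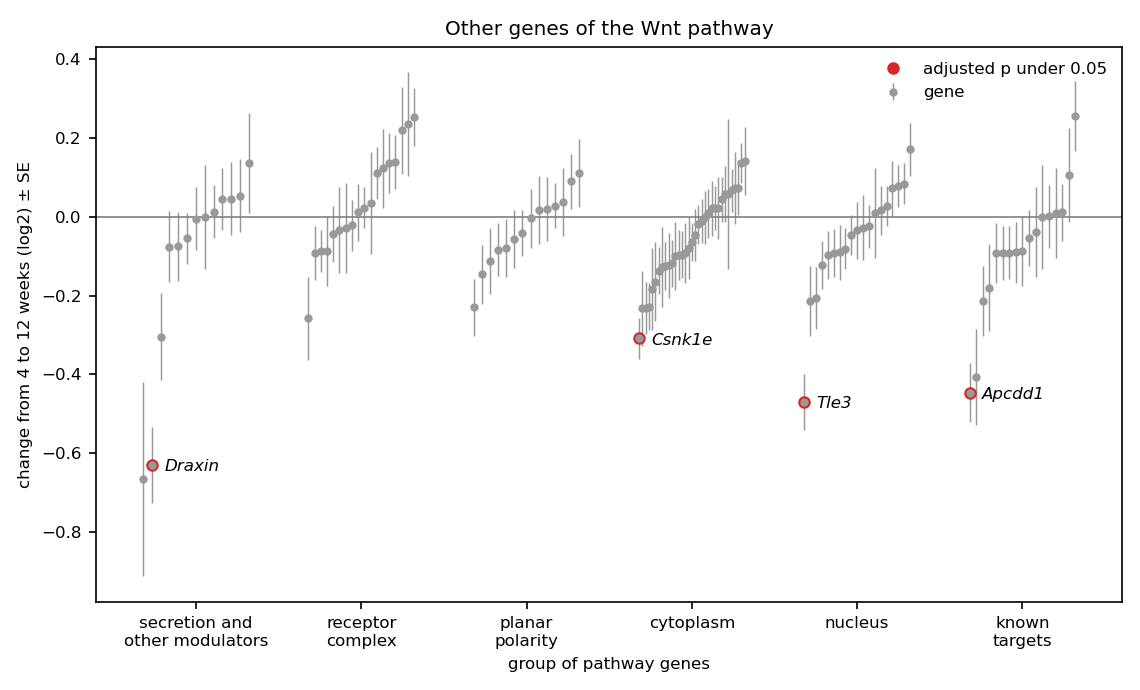
Change from 4 to 12 weeks (log2, vertical axis) with its standard error for the 107 other Wnt pathway genes in 6 groups, each group sorted by change; a gene of 2 groups is drawn in both. The 4 genes with an adjusted p under 0.05, Draxin, Tle3, Apcdd1 and Csnk1e, are drawn in red, and all have negative changes.

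Promoters from the RefSeq table of GRCm38.p6 were available for 30 of the 47 Wnt genes, and the 250 bases before the start given there were read. The 17 members without an entry include Sfrp1, Wnt5a and Fzd6. The following were chosen because Axin2 is the textbook beta-catenin target among the members, Fzd7 had the largest positive change, and Draxin and Tle3 are the called pathway genes of largest fall; all are written 5′ to 3′ on the strand of the gene, with a TCF and LEF core motif in capitals where there was one.
Axin2: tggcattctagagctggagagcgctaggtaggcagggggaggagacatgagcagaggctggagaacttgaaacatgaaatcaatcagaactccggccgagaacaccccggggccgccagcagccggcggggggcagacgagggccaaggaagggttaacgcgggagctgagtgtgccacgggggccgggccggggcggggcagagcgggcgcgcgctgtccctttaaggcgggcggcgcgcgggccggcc
Fzd7: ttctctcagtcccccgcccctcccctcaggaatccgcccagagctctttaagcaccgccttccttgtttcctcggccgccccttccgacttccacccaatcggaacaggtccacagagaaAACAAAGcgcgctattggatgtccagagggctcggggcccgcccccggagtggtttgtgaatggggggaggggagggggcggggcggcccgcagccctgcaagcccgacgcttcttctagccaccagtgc
Draxin: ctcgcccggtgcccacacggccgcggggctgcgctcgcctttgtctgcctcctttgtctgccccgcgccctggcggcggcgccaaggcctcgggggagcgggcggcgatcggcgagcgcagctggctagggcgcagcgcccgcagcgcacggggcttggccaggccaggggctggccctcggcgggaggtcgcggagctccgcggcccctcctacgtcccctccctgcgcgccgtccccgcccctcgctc
Tle3: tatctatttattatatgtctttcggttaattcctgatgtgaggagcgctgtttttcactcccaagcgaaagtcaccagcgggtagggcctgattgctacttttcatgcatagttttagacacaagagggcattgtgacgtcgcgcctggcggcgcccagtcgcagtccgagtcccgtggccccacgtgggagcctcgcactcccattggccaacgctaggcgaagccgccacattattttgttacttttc
The windows are chr11:108920099-108920348 (Axin2, plus strand), chr1:59481897-59482146 (Fzd7, plus strand), chr4:148130699-148130948 (Draxin, minus strand) and chr9:61372116-61372365 (Tle3, plus strand). The Axin2 window lies within the annotated span of the gene (108917828 to 108950783). Its start is thus not the first one annotated. The motif was searched on both strands in 4 forms, the first being CTTTGAA, another form CTTTGAT, a further form CTTTGTA and the last form CTTTGTT. Of the 30 Wnt genes with a promoter entry 4 had a match, Dkk1, Fzd7, Wnt11 and Wnt5b, or 13.3%, against 16.8% of all 27025 genes in the table. In Fzd7 the match, on the minus strand, began 130 bases before the start. None of the other 3 windows printed held these letters, which says nothing about the factors. The median Wnt gene had 66.8% G and C and 22 CpG pairs in its 250 bases, against 52.4% and 6 CpG pairs for all genes in the table; among the windows printed, Axin2 had 24 CpG pairs, Fzd7 17, Draxin 36 and Tle3 17.

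Markers of several cell types fell over the same ages as Sfrp1. Over all genes, 0.673% were called as lower in the trend. Of 15 markers of newborn neurons, 8 fell and 0 rose over all genes, with a median change of −0.63; Dcx, a microtubule protein of immature neurons, had −1.34 ± 0.13 and Eomes, a transcription factor of intermediate progenitors, −1.14 ± 0.10 (SE). The mean level of these 15 markers lay between 9.79 and 9.81 on the 12-week arrays and between 10.48 and 10.54 on the 4-week arrays. Of 9 cell cycle genes 6 fell, and their mean lay between 7.77 and 7.84 at 12 weeks and between 8.32 and 8.34 at 4 weeks. Of 14 markers of radial glia-like stem cells 3 fell, Nes, Lpar1 and Id3, with a mean of 10.06 to 10.12 at 12 weeks and 10.21 to 10.23 at 4 weeks. Of these 14, 2 had positive changes without a call, the larger that of Thrsp (0.28 ± 0.11, SE). Of 10 markers listed for oligodendrocyte precursors 7 were lower, with a mean of 8.91 to 8.96 at 12 weeks and 9.40 to 9.44 at 4 weeks. The largest falls in that list were those of Enpp6 (−1.18 ± 0.15), Bmp4 (−0.96 ± 0.08) and Gpr17 (−0.77 ± 0.09, SE). Its markers Pdgfra (−0.16 ± 0.08), Cspg4 (−0.14 ± 0.07) and Sox10 (−0.09 ± 0.08, SE) were not called. Oligodendrocytes had 6 of 9 lower, with 10.13 to 10.18 at 12 weeks and 10.68 to 10.74 at 4 weeks. No marker in these 5 lists was called as higher or had a mean under the dim level. Their part in the fall of Sfrp1 was not tested.

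The granule cell markers did not share this course, with 1 of 10 higher, 1 lower and a mean of 11.56 to 11.63 at 12 weeks and 11.53 to 11.53 at 4 weeks. Of 10 astrocyte markers 0 were called in limma, with 2 at an unadjusted p under 0.05 and a median change of −0.11. The lists of mossy cells, thalamus and the hippocampal fields CA2 and CA3 each had 1 of 8 markers lower and 0 higher. These were Gal, Slc17a6 and Cacng5. Among 10 interneuron markers 0 were called, with 9 negative changes. The lists of CA1, neocortex, microglia, endothelium, mural cells, ependyma and meninges had 0 called. At an unadjusted p under 0.05 in limma, 11.7% of all genes had a trend. So did 2 of 10 interneuron and 3 of 7 neocortex markers, all lower, and 3 of 9 microglia markers, 1 of them higher. Endothelium had 2 of 9 and mural cells 3 of 10, all higher, ependyma 1 of 9, lower, and CA1 and meninges 0. Of 12 choroid plexus markers 0 were called and 0 had an unadjusted p under 0.05, and 5 of the 12 were dim. With the choroid plexus mean as a covariate the trend of Sfrp1 was −1.01 (adjusted p = 0.0041 in limma), and without both arrays that stood apart it was −0.998 (adjusted p = 0.0045).

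**Figure D5:**
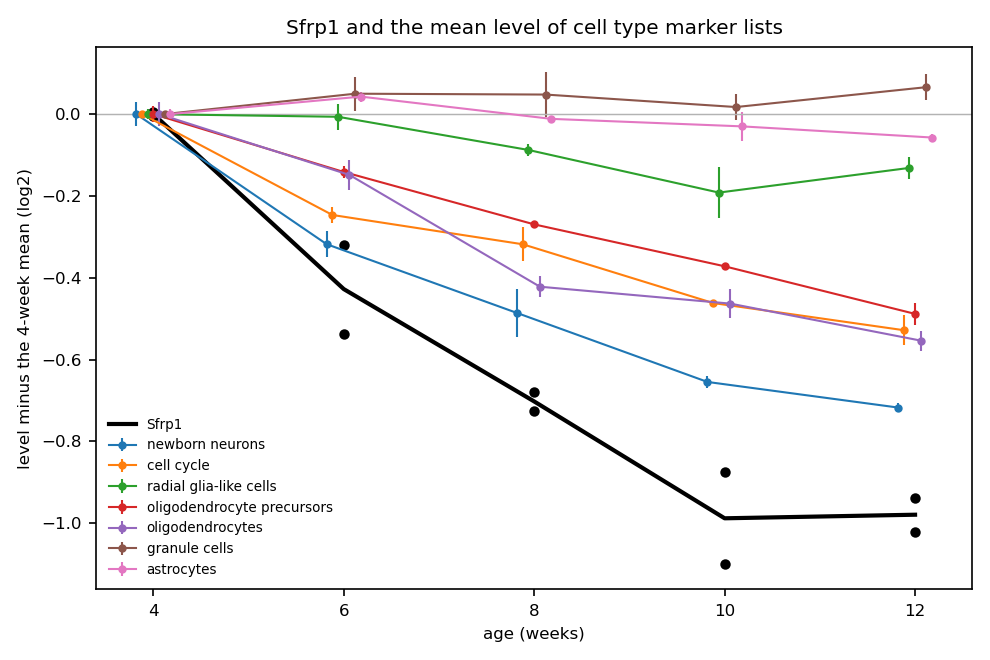
Level minus the 4-week mean (log2) against age in weeks for Sfrp1 (black line through the mean of 2 arrays, points for arrays) and for the mean of 7 marker lists (points at the mean of 2 arrays, bars from the lower to the higher array, shifted slightly sideways). Sfrp1 falls by 0.99 between its 4-week and 10-week means, the lists of newborn neurons, cell cycle, oligodendrocyte precursors and oligodendrocytes lie below 0 at every later age, and the granule cell list lies at or just over 0.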

How the data were processed

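The deposited values, 1 per probe set and array, were taken as log2 expression because they run continuously from 2.50 to 15.04 with like quartiles; the log base, software and normalization are not given in the sources used here. RNA was, per the labels' protocols, fragmented and biotinylated with an Affymetrix terminal labelling kit, and the submitters' processing notes name mm10. Of 25254 probe sets, 21496 had 1 gene in the platform annotation, 1565 several and 2193 none; the last 2 kinds were left out. For 938 genes with several probe sets the one of highest mean was used, leaving 19752 genes with no filter on dim ones. RefSeq names of GRCm38.p6 changed 0 symbols, and the table lacked the gene number of 81 probe sets with 1 gene.

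Tests used limma 3.58.1 in R 4.3.3 on all genes, two-sided, with Benjamini-Hochberg adjustment and a threshold of 0.05: the coefficient of age (8 residual degrees of freedom), scaled to the 8 weeks of the series, and a factor of the 5 ages (5 residual degrees of freedom) for the F-test and for 12 against 4 weeks. Nothing in the labels tells if both arrays of an age are different animals, so p-values cover only the spread between arrays, which may be technical. The number of arrays limits the precision.

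The members, gene lists and tests were chosen with earlier results of these data known. Values on all arrays are given for members called in any test, the 3 largest changes in each direction of the trend and the member of highest mean in each of the classes Wnt, Frizzled, Frizzled-related, Dickkopf, R-spondin and Lrp; other members are given by class, and Axin2 was given in full after its values were seen. Of the other pathway genes, those called and the first measured of each list are named. Alternatives used a replicate block, the mean over probe sets, array weights, quantile normalization, centring on the median, a filter on the dimmest 30% of genes, robust trended variances, a choroid plexus covariate, log2 of age, and fits without 1 array, without both arrays that stood apart, or without the 4-week or 12-week arrays.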

Additional observations from a re-analysis of the deposited data

How the results depend on the processing

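The count of Wnt genes with a trend stayed at 1, and that gene was Sfrp1, in 21 of 22 alternative fits; it was 0 without both 4-week arrays. Over these fits the change of Sfrp1 ranged from −1.30 to −0.78, and from −1.11 to −0.94 when 1 array was left out. The replicate block, the mean over probe sets, the dim filter and the robust trended variances could not move this change from −1.01. Nor could leaving out 1 array of 8 weeks, the middle of the series. In the F-test the count was 0 with the replicate number as a block (adjusted p = 0.082 for Sfrp1 in limma), and from 0 to 1 when 1 array was left out. Between 12 and 4 weeks it also ranged from 0 to 1 when 1 array was left out and was 1 in every other alternative. A fit without 1 array leaves its age with a single array, which is assumed to vary like the others. The differences between replicate 1 and 2 correlated across genes at −0.34 to 0.16 over 10 pairs of ages, and 3 were over 0.1. The lowest value was that of 6 and 8 weeks, the ages of both arrays that stood apart. Whether the replicate numbers pair the arrays was not tested. With the block the trend and the comparison of 12 with 4 weeks kept a count of 1, and the other pathway genes a count of 4.

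Among the other pathway genes the count was 4 in the fit as reported, 0 without both 12-week arrays, 0 without both 4-week arrays, and 0 to 5 when 1 array was left out, and it lay between 4 and 6 in the other alternatives. The 0 counts come with fewer arrays, and the cause was not tested further. Of the members named without a call, 0 passed in any of 22 alternatives. The signs of Wnt7b, Frzb and Lrp6 turned in 1 fit and that of Rspo3 in 4, none of them with a call. The filter on the dimmest 30% of genes kept 36 of the 47 members. Over all 19752 genes the trend count of 162 became 337 with that filter, 363 with trended and robust variances, 417 with array weights, 225 without both arrays that stood apart, 7 without both 4-week arrays and 51 without both 12-week arrays. Leaving out 1 array gave 35 (4 weeks, replicate 1), 54 (4 weeks, replicate 2), 279 (8 weeks, replicate 1), 102 (10 weeks, replicate 2), 91 (12 weeks, replicate 1) and 104 (12 weeks, replicate 2), with the other 4 arrays between 109 and 144.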

Other observations

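Wnt2, a Wnt ligand, and Fzd2, a Frizzled receptor, were chosen after their values were seen, for courses over age that are not a straight line. Wnt2 stood at 7.91 and 8.00 at 4 weeks, 7.87 and 7.91 at 6 weeks, 7.70 and 7.67 at 8 weeks, 8.11 and 8.01 at 10 weeks and 7.67 and 7.91 at 12 weeks. Its highest arrays were thus those of 10 weeks. Fzd2 stood at 8.99 and 8.89 at 4 weeks, 9.20 and 9.01 at 6 weeks, 8.99 and 9.07 at 8 weeks, 9.24 and 9.33 at 10 weeks and 8.95 and 9.02 at 12 weeks, again highest at 10 weeks. In the F-test over the 5 ages both missed the threshold over all genes, with adjusted p of 0.48 for Wnt2 and 0.51 for Fzd2 in limma (unadjusted 0.016 and 0.019). At an unadjusted p under 0.05 the F-test held 6 of the 47 Wnt genes and 8.46% of all genes.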
